A study of Mus musculus with 53 samples.

Results

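The triglyceride lipases and their regulators were examined as 9 genes, Pnpla2, Lipe, Mgll, Abhd5, G0s2, Lpl, Lipf, Lipg and Gpihbp1. They were chosen by symbol for their known functions among the 49568 genes listed in each of 53 samples, with earlier results of these data known. The authors had already named Lipf among the genes changed with the diet. RNA had been sequenced from sciatic nerve of male C57BL/6J mice, so strain, sex and tissue were shared by all groups. At 16 weeks of age, 5 mice were on the standard control diet (SD16), 7 had eaten a high-fat diet with 60% of its energy as fat since the age of 5 weeks (HFD16), and 5 had eaten the same diet and received streptozotocin at 12 weeks (HFD-STZ16). The groups at 24 weeks held 8 SD mice (SD24), 7 HFD mice (HFD24) and 8 HFD-STZ mice (HFD-STZ24). Dietary reversal (DR), a return to control diet for 8 weeks from the age of 16 weeks, was applied to 7 mice after HFD alone (HFD-DR24) and to 6 mice after HFD and streptozotocin (HFD-STZ-DR24), and these too were sampled at 24 weeks. Streptozotocin, which damages the insulin-producing beta cells, was given as 75 mg/kg and then 50 mg/kg. The diet alone was used to mimic prediabetes, and the diet with streptozotocin to mimic type 2 diabetes, and streptozotocin was given only on top of HFD, so its effect on control diet was not measured.

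Triglyceride held in lipid droplets is broken down inside cells in successive steps, with adipose triglyceride lipase (Pnpla2), hormone-sensitive lipase (Lipe) and monoglyceride lipase (Mgll) each acting on the product of the step before. Pnpla2 is activated by the droplet protein Abhd5 and inhibited by G0s2, whereas triglyceride of circulating lipoproteins is hydrolysed outside cells by lipoprotein lipase (Lpl), which Gpihbp1 carries to the capillary surface. Peripheral nerve holds adipocytes in its outer sheath besides the Schwann cells that build myelin, and the whole nerve was sequenced without separating them.

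Each gene has 1 deposited log2 value per mouse, and the authors' text does not say which normalization gave it. The authors give an approximate number of reads per sample and no total for each library, and as the values are not counts, the spread between mice is given as their precision. The lowest was -2.39 and the highest 20.96 once 25 genes reaching above 22 were set aside as untested, and 2180 genes were listed at 0 in every sample. A gene was tested between groups when its mean over the samples compared reached 3.32, or 10 without the logarithm, and it is called changed at an adjusted p-value under 0.05. Differences are the mean of the group named first minus that of the group named after it, on the log2 scale. The library numbers fall into 8 runs of neighbouring numbers with 0 to 2 mice of a group in each, and differences within these runs are given beside some of the results.

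The Schwann cell markers Pmp22, Mbp, Prx and Sox10 had mean log2 levels of 20.18, 19.91, 18.09 and 14.89. The lowest values over the 53 samples were 19.51, 19.28, 17.46 and 14.26, so the labelled tissue was seen in every sample. The 6 adipocyte markers (Adipoq, Cfd, Cidec, Fabp4, Plin1 and Retn) were also present throughout, none of them at 0, with Cfd the most abundant at a mean level of 14.07. Their mean log2 value, called the adipocyte score below, ran from 8.51 in SD16 replicate 1 to 14.08 in the highest HFD24 mouse, and their summed level from 11.81 to 17.31. The 6 skeletal muscle markers (Acta1, Ckm, Myh1, Myh4, Mylpf and Tnnt3) varied more, with a score of 6.52 to 17.07, a summed level of 9.62 to 20.74 and Acta1 the most abundant. In bulk nerve, fewer cells of a type and less RNA per cell cannot be told apart.

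In the deposited values Lpl had the highest mean log2 level over the 53 samples, at 13.91. Pnpla2 was next at 13.58, and Lipf was lowest at 4.17. By group, Pnpla2 lay above Lpl in SD16 (13.16 against 12.39), HFD-STZ16 and HFD-STZ-DR24. Lipg lay below Lipf in HFD16, HFD24 (5.05 against 6.01) and HFD-STZ24. The normalization is not known, and if it already divided by length, levels per kb correct for length a second time. Per kb of exon, Pnpla2 had the highest mean log2 level over the 53 samples, at 11.98. G0s2 followed at 11.18, Lpl at 10.52, Mgll at 10.18, Lipe at 8.87, Abhd5 at 8.77 and Gpihbp1 at 7.63. This order did not hold in every group. In SD16, HFD-STZ16 and HFD-STZ-DR24, Lpl lay below Mgll and Lipe below Abhd5. In HFD-STZ-DR24 these means were 9.44 against 9.78 and 8.02 against 8.71. In the other groups Lpl and Lipe were the higher. Per kb of the longest transcript the order over the 53 samples was partly another. Pnpla2 was at 12.19, Lpl at 11.87, G0s2 at 11.18, Mgll at 10.53, Abhd5 at 9.69, Lipe at 9.53 and Gpihbp1 at 8.26. Lipf at 3.68 by both lengths and Lipg at 2.54 or 2.85 were far below these, and for Lipf the mean of some groups lies under the filter. The genes also differed in how far the group means lay apart, from 3.14 for Lipf, 2.53 for Lpl and 1.66 for Lipe down to 0.54 for Lipg and 0.22 for Abhd5. HFD24 had the highest mean for 7 genes, the exceptions being Lipe, highest in HFD-STZ24, and Abhd5, highest in HFD16, as the plot of the values of all mice shows. When the group means of a gene were put in order, neighbours differed by less than the standard deviation within groups, with the single exception of Lipf between HFD16 and HFD-DR24.

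**Figure D1:**
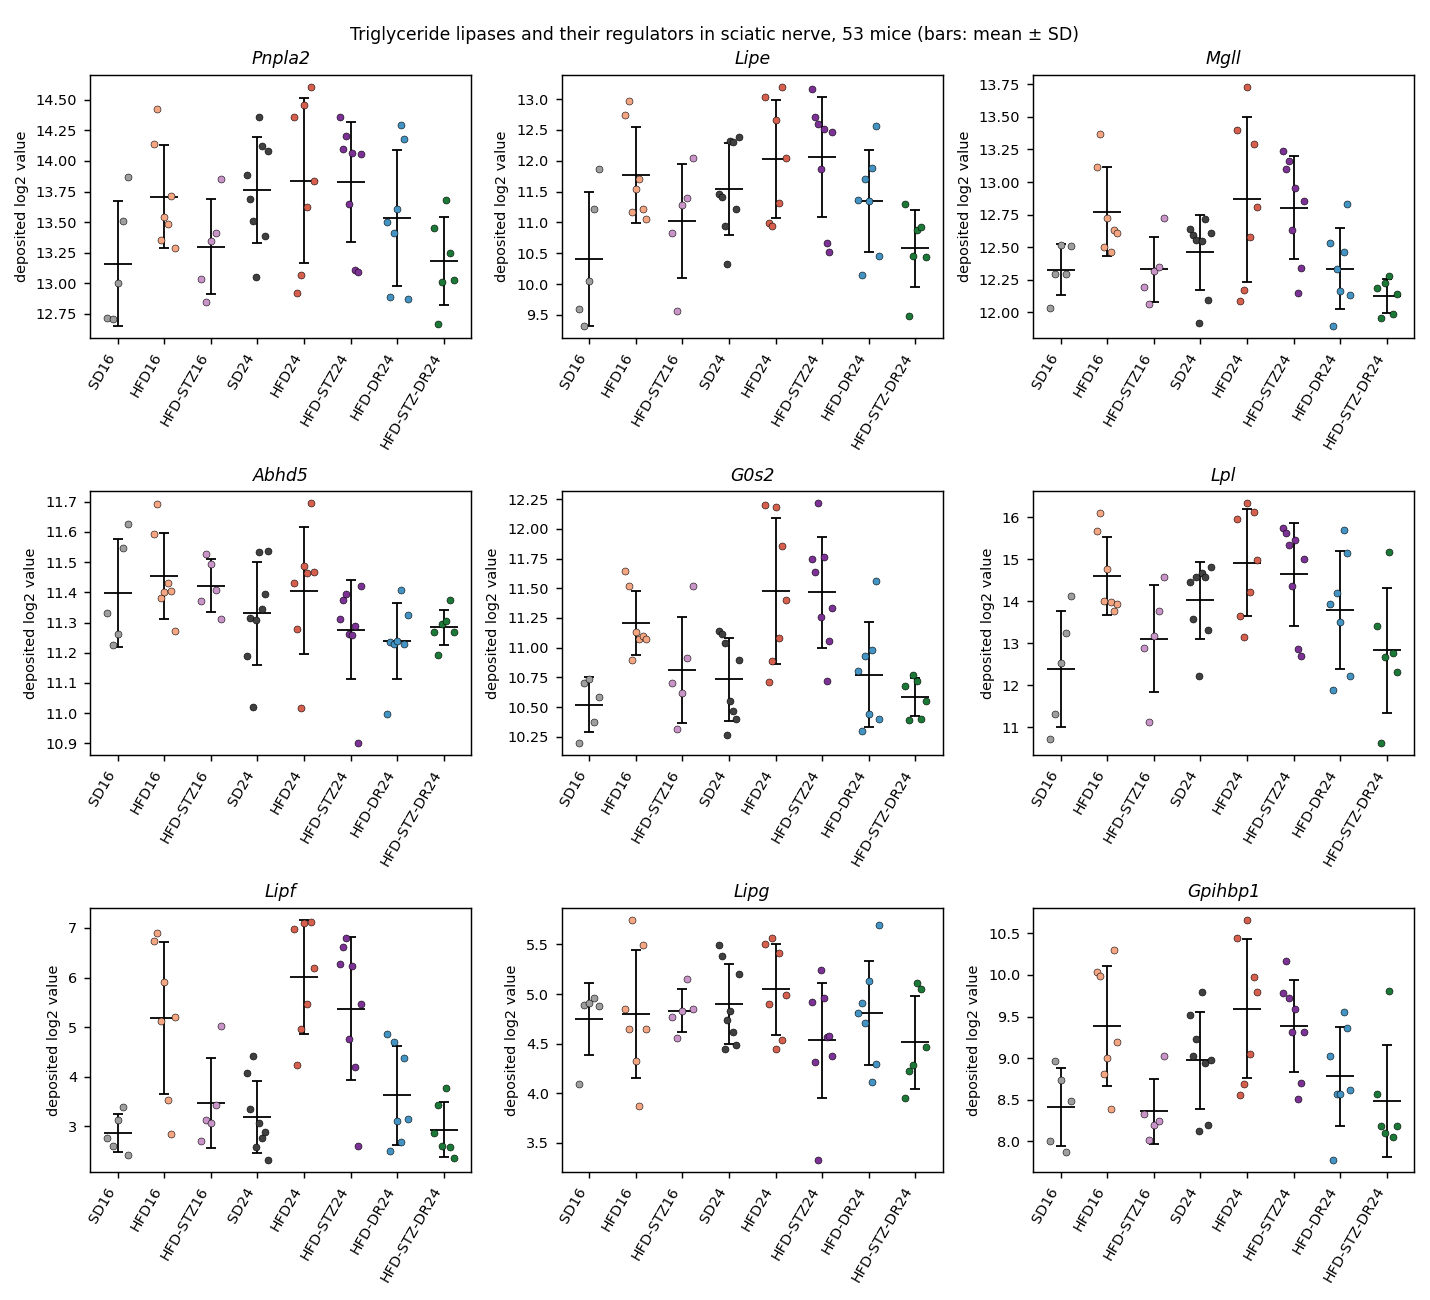
Deposited log2 value of each of the 9 genes (vertical axis) in the 8 groups (horizontal axis), with 1 point per mouse and a bar for the group mean with its standard deviation. Lipf lies highest in HFD24, HFD16 and HFD-STZ24, the Lpl and Lipe values spread widely within groups, and the Abhd5 values stay between 10.90 and 11.69.

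Pnpla2 (ENSMUSG00000025509.15, chr7:141455198-141460743, plus strand, GRCm38) cleaves the first fatty acid from triglyceride, and Abhd5 (ENSMUSG00000032540.16, chr9:122351608-122381524, plus strand) is the coactivator that releases its activity. Promoters from RefSeq (GRCm38.p6) were found for 6 of the 9 genes, and those of Pnpla2, Abhd5 and Lipf are printed because more than 10 bases remained of them once exonic bases had been left out. Each line below is read 5′ to 3′ on the plus strand, from chr7:141454938-141455187 (250 bases, 63.2% G or C) and from chr9:122351366-122351607 (242 bases, 64.05% G or C). The first ends at the base before the RefSeq start, 10 bases short of the GENCODE start, and the second at the base before the GENCODE start. Capitals mark GGGCGG or its reverse complement CCGCCC, and AGGTCA or its reverse complement TGACCT.
Pnpla2: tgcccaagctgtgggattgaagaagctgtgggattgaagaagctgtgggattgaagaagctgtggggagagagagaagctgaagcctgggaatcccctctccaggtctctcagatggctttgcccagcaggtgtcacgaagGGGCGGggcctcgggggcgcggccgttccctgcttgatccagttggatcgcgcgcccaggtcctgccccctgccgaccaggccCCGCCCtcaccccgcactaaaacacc
Abhd5: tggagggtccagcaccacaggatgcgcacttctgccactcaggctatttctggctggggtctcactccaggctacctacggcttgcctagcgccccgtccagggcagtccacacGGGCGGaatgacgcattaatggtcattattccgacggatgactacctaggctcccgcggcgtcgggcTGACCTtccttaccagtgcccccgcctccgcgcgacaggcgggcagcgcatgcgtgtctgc
GGGCGG lies 109 and, on the other strand, 26 bases before the RefSeq start of Pnpla2, and 136 bases before that of Abhd5. It was found in 32.74% of 32851 promoters in a window of 250 bases and in 31.59% in a window of 242 bases. AGGTCA occurs on the other strand 69 bases before the Abhd5 start, against 13.64% of all promoters of that length, and not in the Pnpla2 window, against 14.02%. TATAAA (12.37% of promoters at 250 bases), CACGTG (6.021%), CCAAT (33.85%) and the direct repeat of AGGTCA with 1 base between (0.03348%), each searched on both strands, were in neither window.

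Pnpla2 levels in SD24 mice ran from 13.05 to 14.36 with a median of 13.79, in HFD24 mice from 12.92 to 14.61 (median 13.84) and in HFD-STZ24 mice from 13.09 to 14.36 (median 14.06). After reversal they ran from 12.87 to 14.29 (median 13.50) in HFD-DR24 and from 12.66 to 13.68 (median 13.13) in HFD-STZ-DR24. The 3 groups without reversal cover nearly the same range, and of the mice after reversal, HFD-DR24 replicates 2 and 7, at 12.89 and 12.87, and HFD-STZ-DR24 replicate 2, at 12.66, lie below it and the others within it. The difference from SD24 was 0.08 (SE 0.26, adjusted p = 0.945) in HFD24 and 0.07 in HFD-STZ24. Between HFD-STZ-DR24 and HFD-STZ24 it was -0.65 (SE 0.22, adjusted p = 0.443; exact 2-sided permutation p = 0.0193), which did not pass the threshold over all genes.

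Lipe (ENSMUSG00000003123.15, chr7:25379527-25398710, minus strand) encodes the lipase that acts on diglyceride and is switched by hormones. In SD24 mice its levels ran from 10.32 to 12.38 with a median of 11.43, in HFD24 from 10.95 to 13.21 (median 12.05) and in HFD-STZ24 from 10.52 to 13.16 (median 12.49). HFD-DR24 mice had 10.15 to 12.56 (median 11.36), with a mean lower than that of HFD24 by 0.68, and Lipe was lower in 3 of 6 runs. HFD-STZ-DR24 mice had 9.48 to 11.30, with a median of 10.67. The spread was uneven within HFD-STZ24, where replicates 6 and 7 lay at 10.67 and 10.52 and the other 6 mice at 11.86 or more. HFD-STZ-DR24 was lower than HFD-STZ24 by 1.49 (SE 0.41, adjusted p = 0.251; exact permutation p = 0.0110), and without HFD-STZ24 replicate 7 Lipe was called, at -1.71 with an adjusted p of 0.0494. Exons of Lipe share 918 bases, 15.6% of its exonic length, with an antisense gene, 4732471J01Rik, and as the libraries were not stranded, reads there cannot be assigned to either gene.

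Mgll (ENSMUSG00000033174.17, chr6:88724412-88828360, plus strand) encodes the lipase of the last step, which frees glycerol from monoglyceride. Its levels were 11.92 to 12.72 in SD24 (median 12.57), 12.09 to 13.73 in HFD24 (median 12.81), 12.15 to 13.24 in HFD-STZ24 (median 12.90), 11.89 to 12.83 in HFD-DR24 (median 12.33) and 11.96 to 12.28 in HFD-STZ-DR24 (median 12.16). The HFD-STZ-DR24 mice lie closely together, and only replicates 6 and 7 of HFD-STZ24 come near them. The difference between HFD-STZ-DR24 and HFD-STZ24 was -0.68 (SE 0.16, adjusted p = 0.144; exact permutation p = 0.00433), and Mgll was lower in each of the 6 runs that held both groups. Without HFD-STZ24 replicate 6 the difference was -0.77 and the adjusted p 0.0121, and without replicate 7 they were -0.74 and 0.0412, so each of these mice decided whether Mgll was called. An antisense gene, Gm26588, shares 167 exonic bases with Mgll, 3.289% of its length.

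The coactivator Abhd5 varied least of the 9 genes. Group means lay between 11.24 in HFD-DR24 and 11.45 in HFD16, and no value was under 10.90 or above 11.69. Its differences at 24 weeks were 0.07 (SE 0.10, adjusted p = 0.821) in HFD24 and -0.05 in HFD-STZ24 against SD24, -0.17 in HFD-DR24 against HFD24 and 0.01 in HFD-STZ-DR24 against HFD-STZ24. When 1 mouse was left out, the first ran from 0.03 to 0.14 and the second from -0.098 to -0.00024. Abhd5 shares 950 exonic bases, 15.95% of its length, with the antisense gene A730085K08Rik, and that gene also contains 27.83% of the 100-base windows of the longest Abhd5 transcript, so part of its signal cannot be assigned.

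G0s2 (ENSMUSG00000009633.3, chr1:193272161-193273217, minus strand) encodes a small protein that binds Pnpla2 and blocks it. The SD24 mice had G0s2 levels of 10.27 to 11.14 with a median of 10.72, the HFD24 mice 10.71 to 12.20 (median 11.40) and the HFD-STZ24 mice 10.72 to 12.22 (median 11.48). HFD-DR24 mice had 10.29 to 11.56 (median 10.81) and HFD-STZ-DR24 mice 10.39 to 10.77 (median 10.62). In HFD24, 4 of 7 mice lay above every SD24 mouse, in HFD-STZ24 6 of 8 did, and 5 of 6 HFD-STZ-DR24 mice lay below every HFD-STZ24 mouse. Against SD24, G0s2 was higher by 0.74 in HFD24 (SE 0.23, adjusted p = 0.307; exact permutation p = 0.0131) and by 0.73 in HFD-STZ24 (SE 0.19, adjusted p = 0.467; exact permutation p = 0.00420). It was higher in 6 of 7 runs and in 8 of 8 runs, respectively. HFD-DR24 was lower than HFD24 by 0.70 (SE 0.26, adjusted p = 0.642; exact permutation p = 0.0344) and lower in 4 of 6 runs. HFD-STZ-DR24 was lower than HFD-STZ24 by 0.88 (SE 0.19, adjusted p = 0.102; exact permutation p = 0.00167) and lower in 6 of 6 runs. Without HFD-STZ24 replicate 6 that last difference was -0.99 with an adjusted p of 0.00790, and without replicate 7 it was -0.94 with an adjusted p of 0.0402.

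At 16 weeks the G0s2 values were 10.20, 10.71, 10.74, 10.38 and 10.58 in the 5 SD16 mice, 10.90 to 11.64 with a median of 11.10 in HFD16, and 10.70, 10.32, 10.61, 10.91 and 11.52 in the 5 HFD-STZ16 mice. Every HFD16 mouse lay above every SD16 mouse, while HFD-STZ16 overlapped both groups. The difference between HFD16 and SD16 was 0.69 (SE 0.14, adjusted p = 0.230), and the exact permutation p of 0.00126 is the smallest that 7 against 5 mice can give. HFD-STZ16 differed from SD16 by 0.29 (SE 0.20, adjusted p = 0.613), or by 0.12 to 0.42 when 1 mouse was left out.

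Lipf (ENSMUSG00000024768.5, chr19:33961187-33976810, plus strand) encodes gastric lipase, which the stomach secretes to digest dietary fat. Its 10 exons hold 1411 bases, none of its 100-base stretches is found in another gene and no annotated gene overlaps its exons. The line gives the plus strand of chr19:33960998-33961186 (RefSeq, GRCm38.p6, 189 bases, 31.22% G or C), which ends at the base before the GENCODE start, and capitals mark CCAAT or its reverse complement ATTGG.
Lipf: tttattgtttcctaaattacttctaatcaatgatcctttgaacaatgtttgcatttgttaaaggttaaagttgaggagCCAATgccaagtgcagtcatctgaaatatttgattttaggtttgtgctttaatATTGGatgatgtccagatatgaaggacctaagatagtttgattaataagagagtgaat
CCAAT lies 172 bases before the RefSeq start, and its reverse complement 119 bases before it. In windows of 189 bases it was found in 26.54% of promoters. Searched in the same window and not found were TATAAA (8.691% of promoters), CACGTG (3.994%), GGGCGG (22.64%), AGGTCA (10.77%) and its direct repeat with 1 base between (0.02131%), on both strands. The 61 bases nearest the RefSeq start of Lipf were left out as exonic and were not searched.

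The SD24 mice had Lipf levels of 2.32 to 4.41 with a median of 2.97, and the HFD24 mice levels of 4.23 to 7.13 with a median of 6.19. In HFD24, 6 of 7 mice lay above the highest SD24 mouse, and the exception, replicate 2 at 4.23, lay below SD24 replicate 3 at 4.41. Lipf rose by 2.83 in HFD24 (SE 0.45, adjusted p = 0.0134), and it stood at place 13 when the 18191 genes tested were ordered by p. Read as plain log2 the difference is 7.09-fold, but the normalization behind the deposited values is not known. The exact permutation p was 0.000311, where 0.000155 is the smallest these groups can give. Within runs Lipf was higher in 6 of 7, with differences from -0.18 to 4.26 and a median of 3.62. It stayed called in each of the 15 fits that left out 1 mouse, with adjusted p between 0.00211 and 0.0455, and the difference ran from 2.64 to 3.12. As the SD24 mean of 3.18 is under 3.32, Lipf passed the filter through the HFD24 mice. Without a filter on low values its adjusted p was 0.0357, under the other settings that tested it with all mice the adjusted p lay between 0.000922 and 0.0211, and a filter asking 3.32 in every sample left it untested.

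Of the 9 genes, 1 was called between HFD24 and SD24, and of all genes 22 of 18191, or 0.121%. The comparison asks what the high-fat diet alone changed by 24 weeks. All 9 genes had a higher mean in HFD24, with a median difference of 0.48 against 0.0077 over all genes tested. At an unadjusted p under 0.05 there were 2 of the 9 (G0s2 and Lipf) and 1646 of all genes, 1008 of them higher. The number called over all genes moved with single mice, to 44 without HFD24 replicate 2 or replicate 3, to 13 without SD24 replicate 7, HFD24 replicate 1 or HFD24 replicate 4, and to 14 without SD24 replicate 8 or HFD24 replicate 7, while Lipf was among those called each time.

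**Figure D2:**
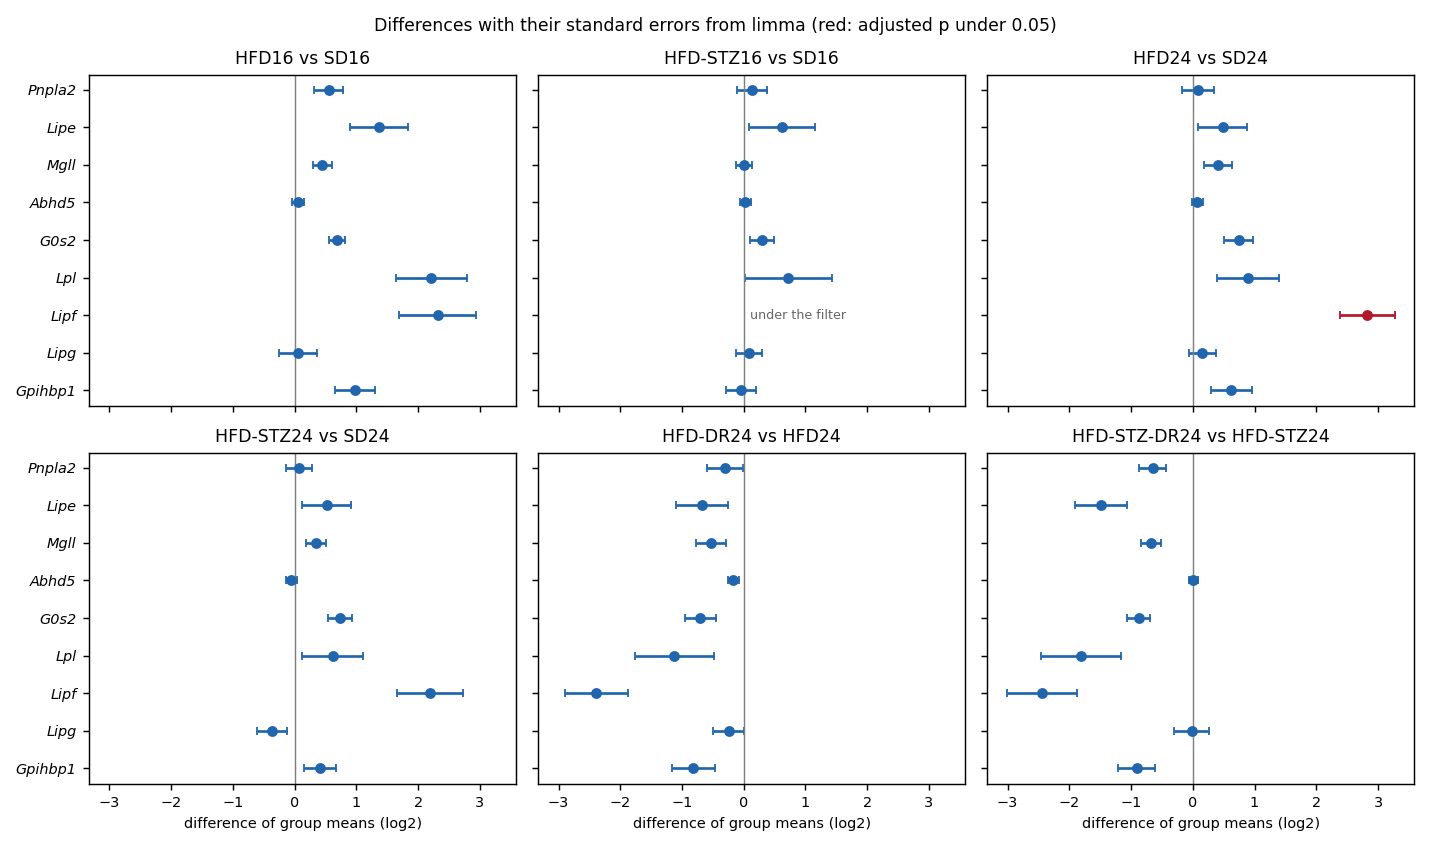
Difference in mean log2 value (horizontal axis) of each gene (vertical axis) in 6 comparisons, with points for the limma difference, bars for its standard error and red for an adjusted p under 0.05. Lipf in HFD24 against SD24, at 2.83, is the red point, and after reversal most points lie below 0.

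In HFD-STZ24 mice Lipf levels ran from 2.59 to 6.80 with a median of 5.85. Of these 8 mice, 6 lay above every SD24 mouse, and replicate 7 at 2.59 and replicate 6 at 4.20 lay within the SD24 range. The difference from SD24 was 2.19 (SE 0.53, adjusted p = 0.353; exact permutation p = 0.00373), with higher values in 7 of 8 runs, and here too Lipf passed the filter through the HFD-STZ24 mice. Without HFD-STZ24 replicate 7 Lipf was called, at 2.59 with an adjusted p of 0.0226, and with all mice its adjusted p ran from 0.0654 to 0.829 over the settings. In this comparison, which adds streptozotocin to the diet, 0 of the 9 genes were called by limma and 6 of 17846 genes in all, or 0.0336%, with 19 in all without replicate 6 and 10 without replicate 7. At an unadjusted p under 0.05 there were 3 of the 9, Mgll, G0s2 and Lipf, and 1069 of all genes. The median difference was 0.41, against 0.00056 over all genes tested.

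Reversal after HFD alone brought Lipf levels of 2.49 to 4.86 with a median of 3.14. All 7 HFD-DR24 mice lay below the HFD24 median and 4 of them below every HFD24 mouse. The difference from HFD24 was -2.39 (SE 0.52, adjusted p = 0.232; exact permutation p = 0.00350), and Lipf was lower in 5 of 6 runs. It was called with the adipocyte score in the model, at -1.83 (adjusted p = 0.0285), and with all 8 groups and the library run in 1 fit, at -2.50 (adjusted p = 0.0425), and under the other settings with all mice its adjusted p ran from 0.0596 to 0.849. Without 1 mouse it ran from 0.0574 to 0.621. Limma called 0 of the 9 genes and 2 of 18475 genes in all, or 0.0108%, where leaving out 1 mouse gave 0 to 10 in all, the most without HFD24 replicate 2. All 9 genes were lower in HFD-DR24, by a median of 0.68 against 0.0019 over all genes (0.34 with the adipocyte score in the model, where Pnpla2 was higher), and 4 of them (Mgll, G0s2, Lipf and Gpihbp1) had an unadjusted p under 0.05, as had 1242 of all genes.

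After reversal of HFD and streptozotocin, Lipf levels ran from 2.36 to 3.77 with a median of 2.72. Each of the 6 HFD-STZ-DR24 mice lay below all HFD-STZ24 mice but replicate 7. The difference from HFD-STZ24 was -2.44 (SE 0.57, adjusted p = 0.151; exact permutation p = 0.00400), and Lipf was lower in 6 of 6 runs. The HFD-STZ-DR24 mean of 2.93 is under 3.32, so Lipf was tested through the HFD-STZ24 mice, and without a filter its adjusted p was 0.409. It was called with all 8 groups in 1 fit (adjusted p = 0.0341), with the library run added (0.0425) and without HFD-STZ24 replicate 7, at -2.84 (0.0160), and under the other settings with all mice its adjusted p ran from 0.151 to 0.468. Limma called 0 of the 9 genes here and 15 of 17862 in all, or 0.084%, but 2 of the 9 and 167 of all genes without HFD-STZ24 replicate 6, and 4 of the 9 and 117 of all genes without replicate 7. The unadjusted p was under 0.05 for 7 of the 9, all lower, the exceptions being Abhd5 and Lipg, and for 1157 of all genes. The median difference was -0.88, against 0.0069 over all genes tested.

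At 16 weeks the SD16 mice had Lipf values of 2.76, 2.60, 3.12, 3.39 and 2.43, the HFD16 mice 2.85 to 6.91 with a median of 5.21, and the HFD-STZ16 mice 2.70, 3.13, 3.06, 3.44 and 5.02. Of the HFD16 mice, 6 of 7 lay above every SD16 mouse, as did HFD-STZ16 replicates 4 and 5. The difference between HFD16 and SD16 was 2.32 (SE 0.63, adjusted p = 0.391; exact permutation p = 0.0126), with higher values in 5 of 5 runs. The SD16 mean of 2.86 is under 3.32, and without a filter the adjusted p was 0.808. Between HFD-STZ16 and SD16 the mean of Lipf was under the filter and it was not tested. Since gastric lipase is known from the stomach, 10 stomach markers were read in the nerve. Of these, 9 were under the filter, Tff1 was at or below 0 in every sample, and Gkn3 was the most abundant at a mean level of 7.11. Their mean log2 value stayed between 1.504 and 2.40, their summed level between 6.74 and 8.25, and the score differed by 0.14 between HFD24 and SD24 (exact permutation p = 0.113).

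Lpl (ENSMUSG00000015568.16, chr8:68880491-68907448, plus strand) is secreted by adipocytes, muscle and other cells and acts on lipoproteins in the capillary. Its levels ran from 12.22 to 14.81 in SD24 (median 14.51), from 13.14 to 16.33 in HFD24 (median 14.98) and from 12.70 to 15.74 in HFD-STZ24 (median 15.18). In HFD-DR24 they ran from 11.88 to 15.70 (median 13.94) and in HFD-STZ-DR24 from 10.63 to 15.19 (median 12.72). The HFD24 replicates 2 and 3 were low for Lpl, Lipe, Mgll, G0s2 and Lipf alike, and replicates 1, 4 and 6 were high for the same genes. Lpl was higher by 0.89 in HFD24 than in SD24 (SE 0.51, adjusted p = 0.605; exact permutation p = 0.140) and lower by 1.81 in HFD-STZ-DR24 than in HFD-STZ24 (SE 0.65, adjusted p = 0.519; exact permutation p = 0.0333). At 16 weeks it was 10.73, 11.31, 12.54, 13.25 and 14.12 in SD16, 13.77 to 16.10 in HFD16 (median 14.003) and 12.90, 11.13, 13.19, 13.77 and 14.57 in HFD-STZ16. HFD16 was higher than SD16 by 2.21 (SE 0.57, adjusted p = 0.358; exact permutation p = 0.00631), while the groups overlapped through SD16 replicate 5.

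Gpihbp1 (ENSMUSG00000022579.10, chr15:75596628-75599481, plus strand) anchors Lpl on capillary endothelium. Its levels ran from 8.12 to 9.80 in SD24 (median 9.002), from 8.56 to 10.66 in HFD24 (median 9.80) and from 8.51 to 10.16 in HFD-STZ24 (median 9.45). HFD-DR24 mice had 7.77 to 9.56 (median 8.61) and HFD-STZ-DR24 mice 8.05 to 9.81 (median 8.18). All 5 ranges overlap, and in HFD-STZ-DR24 the highest value, replicate 4, stands apart from the next at 8.57. The differences were 0.62 (SE 0.33, adjusted p = 0.592) between HFD24 and SD24, and -0.91 (SE 0.30, adjusted p = 0.421; exact permutation p = 0.0233) between HFD-STZ-DR24 and HFD-STZ24. The 6 capillary endothelium markers, with Cldn5 the most abundant at 12.13, had a mean log2 value of 10.85 to 11.70 in all samples, which differed by -0.22 in the latter comparison (exact permutation p = 0.0666).

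Lipg (ENSMUSG00000053846.5, chr18:74939322-74961263, minus strand) encodes endothelial lipase, which acts mainly on lipoprotein phospholipid. Over all samples it had the lowest mean of the 9 genes per kb, though in SD16 Lipf was lower per kb of exon (2.36 against 2.51). In the deposited values, not divided by length, the mean of Lipf over all samples was the lower (4.17 against 4.77). In HFD16, HFD24 and HFD-STZ24 that of Lipg was the lower. Lipg ranged from 3.33 to 5.74 over all samples, with group means between 4.51 in HFD-STZ-DR24 and 5.05 in HFD24. Its differences at 24 weeks were 0.15 (SE 0.22, adjusted p = 0.853) in HFD24 and -0.36 in HFD-STZ24 against SD24, -0.24 in HFD-DR24 against HFD24 and -0.02 in HFD-STZ-DR24 against HFD-STZ24, where it was 0.03 once each sample was centred on its median. When 1 mouse was left out, those in HFD24, HFD-STZ24 and HFD-DR24 ran from 0.07 to 0.25, -0.47 to -0.19 and -0.39 to -0.12. Its values in SD24 and HFD24 overlapped throughout.

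In HFD16 against SD16, which asks what the diet had changed before reversal began, limma called 0 of the 9 genes and 1 of 17962 in all, or 0.00557%, and 4 in all without HFD16 replicate 6. All 9 means were higher in HFD16, by a median of 0.69 against 0.012 over all genes. The unadjusted p was under 0.05 for 7 of the 9, all but Abhd5 and Lipg, and for 1536 of all genes. In HFD-STZ16 against SD16, 0 of the 8 genes tested and 0 of 17879 in all (0%) were called, 0 and 1504 had an unadjusted p under 0.05, 1 was called in all without SD16 replicate 5 or without HFD-STZ16 replicate 2, and the median difference was 0.11 against 0.022. In the 4 runs that held both groups the differences were larger, at 1.23 to 2.16 for Lpl, 0.84 to 1.96 for Lipe and 0.32 to 0.64 for Pnpla2, against 0.72, 0.62 and 0.14 over all mice. Without 1 mouse the latter ran from 0.31 to 1.22, 0.35 to 0.98 and -0.00081 to 0.32. The 4 runs leave out SD16 replicate 5 and HFD-STZ16 replicate 2. For Lpl, Lipe and Pnpla2 these were the highest SD16 mouse and the lowest HFD-STZ16 mouse, at 14.12 and 11.13 for Lpl. What comparing within runs adds beyond the loss of these mice was not tested. The differences within these 4 runs went both ways for Mgll, Abhd5, G0s2, Lipg and Gpihbp1. They ran from -0.09 to 1.14 for G0s2 and from -0.78 to 1.16 for Gpihbp1. HFD-STZ16 against HFD16 gave 0 of 9 called and 0 of 18202 in all (0%), with 5 of the 9, all lower, and 889 of all genes at an unadjusted p under 0.05 and a median of -0.44, where the adipocyte score was lower by 1.03 (exact permutation p = 0.104). These 3 comparisons share mice, so their values are not independent of each other.

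Whether reversal led back to the control state was asked by comparing the DR groups with SD24. Limma called 0 of the 9 genes and 0 of 18145 in all (0%) in HFD-DR24, where 0 of the 9 and 933 of all genes had an unadjusted p under 0.05 and the median difference was -0.12. In HFD-STZ-DR24, 0 of 8 and 0 of 17889 in all (0%) were called, but 20 in all without SD24 replicate 4, and all 8 genes tested were lower, by a median of 0.44 against 0.0078 over all genes. Of these, Pnpla2, Lipe and Mgll had an unadjusted p under 0.05, as had 1639 of all genes. The adipocyte score was lower by 1.502 as well (exact permutation p = 0.0103), and with it in the model the 8 differences ran from -0.22 to 0.37, with Lpl, Lipe, Abhd5 and G0s2 above 0. Between models, HFD-STZ24 against HFD24 gave 0 of 9 called and 0 of 18117 in all (0%), with 0 of the 9 and 1013 of all genes at an unadjusted p under 0.05, and 1 gene in all without HFD24 replicate 4 or HFD-STZ24 replicate 6. HFD-STZ-DR24 against HFD-DR24 gave 0 of 8 and 0 of 18189 in all (0%), with 0 of the 8 and 652 of all genes at that level. A p-value above the threshold does not show that the groups were alike.

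Age was compared within each diet. In SD24 against SD16, limma called 0 of 8 and 0 of 17788 genes in all (0%), with 3 of the 8 at an unadjusted p under 0.05 (1862 of all genes) and 4 called in all without SD24 replicate 6, and the means of Lpl, Lipe and Pnpla2 were higher at 24 weeks by 1.63, 1.14 and 0.60. The adipocyte score was higher by 1.71 (exact permutation p = 0.0396), and with it in the model these differences were 0.26, 0.10 and 0.06. In HFD24 against HFD16, 0 of 9 and 12 of 18360 genes in all (0.0654%) were called, the latter 0 to 17 when 1 mouse was left out, with 0 of the 9 and 1083 of all genes at an unadjusted p under 0.05. In HFD-STZ24 against HFD-STZ16, 0 of 9 and 0 of 17963 in all (0%) were called, 1 in all without HFD-STZ24 replicate 6 or HFD-STZ16 replicate 5, and 6 of the 9, all higher, and 2251 of all genes had an unadjusted p under 0.05. Among these, Gpihbp1 was higher by 1.03 (adjusted p = 0.279), Lipf by 1.90, Lpl by 1.53 and Pnpla2 by 0.53. The adipocyte score was higher by 1.32 (exact permutation p = 0.0730), and with it in the model they were 0.55, 0.76, 0.14 and 0.04. The part of the adipocyte markers in these differences was not tested further.

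The change of an effect with age or model was tested as such. The HFD effect differed between ages for 0 of the 9 genes and 0 of 18087 in all (0%), the HFD-STZ effect for 0 of 9 and 0 of 17871 in all (0%), and the effect of reversal between models for 0 of 9 and 0 of 18161 in all (0%). At an unadjusted p under 0.05 limma gave 0, 1 and 0 of the 9, and 302, 836 and 310 of all genes. The 1 gene was Lipf, whose HFD-STZ effect was larger by 1.58 at 24 weeks (adjusted p = 0.756). Lipf was called in HFD24 and not in HFD-STZ24 against SD24, but between HFD-STZ24 and HFD24 themselves it differed by -0.64 (SE 0.62, adjusted p = 0.794). With the adipocyte score in the model, Lipf differed by -0.87 (SE 0.23, adjusted p = 0.192) and Lpl by -0.51 (SE 0.09, adjusted p = 0.0685). None of these passed the threshold, so a difference between the models was not shown.

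How the genes varied between mice of a group was read against the adipocyte score, with all values centred on their group means over 53 samples. A relation was computed for each of the 9 genes, and in limma 5690 of 18069 genes in all (31.5%) and 8 of the 9 were associated with the score. Lipe followed the score most closely, with r = 0.94 and rho = 0.96 (permutation p = 1e-05 each, the smallest these permutations can give). Without SD16 replicate 1 and HFD-STZ-DR24 replicate 2, the samples farthest from the median score, r was 0.96, and centred on groups and runs it was 0.95. Lpl had r = 0.92 and rho = 0.93, Pnpla2 0.88 and 0.92, Mgll 0.79 and 0.85, and G0s2 0.70 and 0.70, all with the same permutation p, and r was above 0 in 8 of 8 groups for these 5 genes. Without the farthest samples r was 0.92, 0.90, 0.82 and 0.72, and centred on groups and runs 0.92, 0.89, 0.82 and 0.73. In limma the slope was 1.01 per unit of score for Lpl (adjusted p = 1.38e-18) and 0.73 for Lipe (adjusted p = 4.36e-21). After each sample was centred on its median, 7 of the 9 were associated, Abhd5 no longer being among them, beside 43.4% of all genes.

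**Figure D3:**
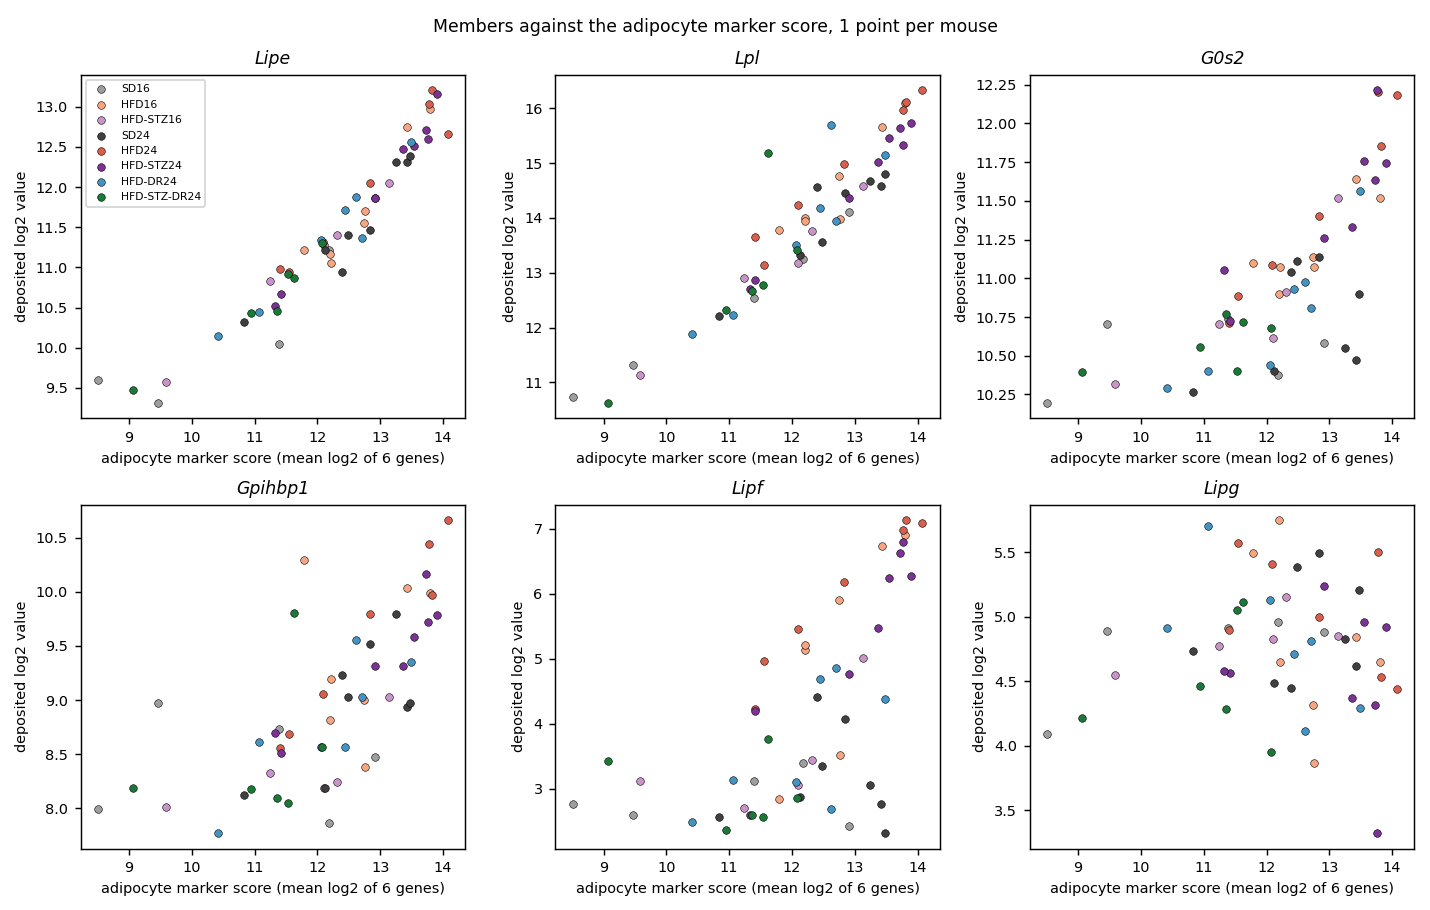
Log2 value of 6 of the genes (vertical axes) against the adipocyte score, the mean log2 value of 6 markers (horizontal axis), with 1 point per mouse coloured by group. Lipe and Lpl rise closely with the score, Lipf lies higher in most HFD24 mice than in SD24 mice, and Lipg shows no slope.

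Lipf was tied to the score more loosely, with r = 0.55 (permutation p = 2e-05) and rho = 0.56 (permutation p = 3e-05), 0.63 without the farthest samples and 0.62 centred on groups and runs, and a slope of 0.52 (adjusted p = 0.000510). Its r ran from -0.27 in HFD-STZ-DR24 to 0.98 in HFD24 and was above 0 in 6 of 8 groups. Gpihbp1 had r = 0.57 (permutation p = 2e-05) and rho = 0.61 (permutation p = 1e-05), with 0.57 and 0.55 in those checks. Abhd5 had r = 0.45 (permutation p = 0.00187) and rho = 0.49 (permutation p = 0.000880), with 0.45 in both checks and a slope of 0.06 per unit (adjusted p = 0.00810). Lipg was the gene without an association, at r = -0.07 (permutation p = 0.610) and rho = -0.09 (permutation p = 0.543), with -0.21 and -0.03. Against the muscle score Gpihbp1 had r = 0.43 (permutation p = 0.00361) and rho = 0.33 (permutation p = 0.0249), 0.29 without SD24 replicate 5 and HFD-STZ-DR24 replicate 4, and 0.38 centred on groups and runs, and the other 8 genes lay between -0.07 and 0.25 in r. The adipocyte and muscle scores themselves had r = 0.10 with each other.

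Over the 36 pairs among the genes the median r was 0.60. The closest were Pnpla2 and Lipe, with r = 0.94 and rho = 0.94 (permutation p = 1e-05 each), 0.94 without the samples farthest from the median of Pnpla2 and 0.93 centred on groups and runs. The inhibitor G0s2 was closest to Mgll, with r = 0.90 and rho = 0.89 (permutation p = 1e-05 each), 0.88 and 0.90. With Pnpla2, which it inhibits, G0s2 had r = 0.73 and rho = 0.71 (permutation p = 1e-05 each), 0.70 and 0.75. Lpl and its anchor Gpihbp1 had r = 0.73 and rho = 0.72 (permutation p = 1e-05 each), 0.74 and 0.71, while Gpihbp1 had r = 0.81 with Mgll and 0.75 with both G0s2 and Pnpla2. Between Abhd5 and G0s2, the activator and the inhibitor, r was 0.19 (permutation p = 0.242) and rho 0.15 (permutation p = 0.314), with 0.10 and 0.19. Pnpla2 and its coactivator Abhd5 had r = 0.60 and rho = 0.59 (permutation p = 2e-05 each), 0.56 and 0.58, which is near the median pair. The relation of the genes to the adipocyte score was not removed from these r, and its part in them was not tested.

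The adipocyte markers moved between groups as well, and their part in the results was not tested beyond a model with the score as covariate. The score was higher in HFD16 than in SD16 by 1.81 (exact permutation p = 0.0328), lower in HFD-STZ-DR24 than in HFD-STZ24 by 1.89 (exact permutation p = 0.00799), and lower by 0.68 in HFD-DR24 than in HFD24 (exact permutation p = 0.263). HFD24 and SD24 differed by 0.19 (exact permutation p = 0.716) and HFD-STZ24 and SD24 by 0.39 (exact permutation p = 0.427). The median summed level of the 6 markers was 16.14 in SD24, 16.01 in HFD24, 16.65 in HFD-STZ24, 15.65 in HFD-DR24 and 14.88 in HFD-STZ-DR24, and 15.02, 15.93 and 15.52 in SD16, HFD16 and HFD-STZ16. The muscle score was higher in HFD-DR24 than in HFD24 by 2.77 (exact permutation p = 0.0746), and the macrophage score, with Lyz2 the most abundant of 6 genes at 14.21 and a range of 10.56 to 12.72, was lower by 0.56 (exact permutation p = 0.0519). The fibroblast score, with Dcn the most abundant of 6 genes at 17.69, ran from 13.09 to 15.24, and no marker of these lists was at 0.

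**Figure D4:**
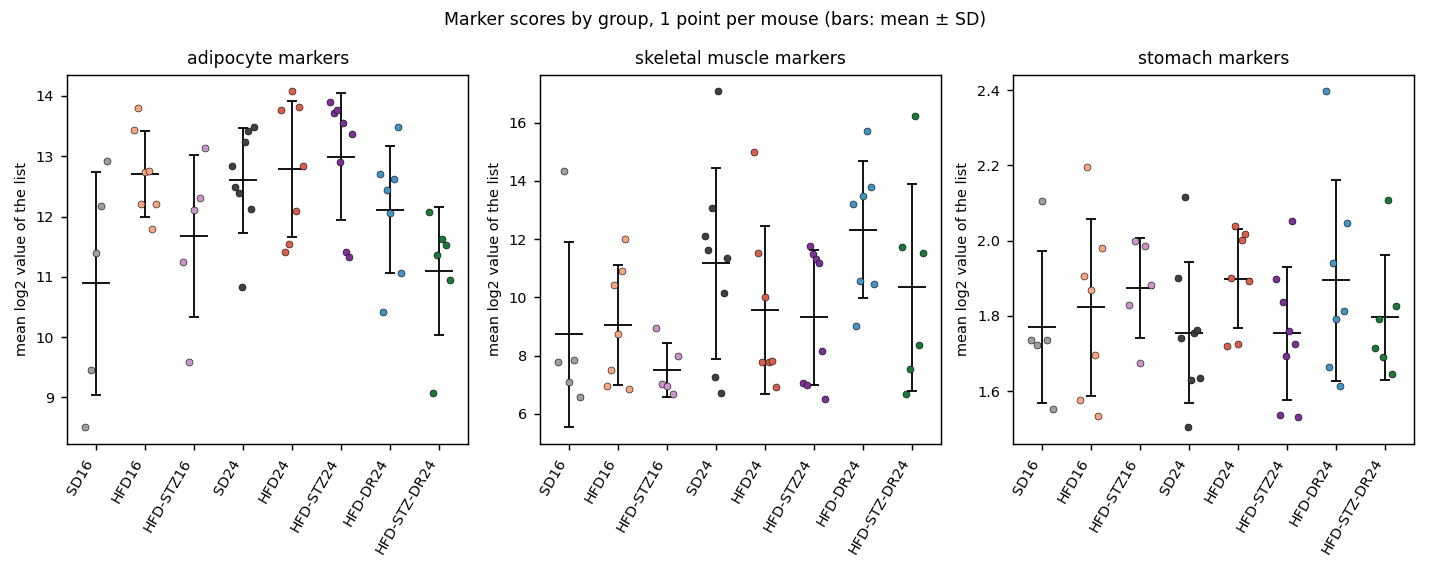
Mean log2 value of the adipocyte, skeletal muscle and stomach markers (vertical axes) by group (horizontal axis), with 1 point per mouse and a bar for the group mean with its standard deviation. The adipocyte score is lowest in SD16 and HFD-STZ-DR24, the muscle score spreads from 6.52 to 17.07 and the stomach score stays between 1.504 and 2.40.

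With the adipocyte score in the model, Lipf remained called between HFD24 and SD24, at 2.71 (SE 0.37, adjusted p = 0.000922) against 2.83 without the score. Lpl was then called too, at 0.69 (SE 0.15, adjusted p = 0.0337), with 176 of all genes, while without the score its adjusted p lay between 0.514 and 0.650 over the settings that kept all mice, and reached 0.721 when 1 mouse was left out. G0s2 was at 0.67 with an adjusted p of 0.0559. Between HFD-STZ-DR24 and HFD-STZ24 the differences were smaller in size with the score in the model, except those of Abhd5 and Lipg. Abhd5 went from 0.01 to 0.16 and Lipg from -0.02 to -0.05. The median over the 9 genes went from -0.88 to -0.05, the number with an unadjusted p under 0.05 from 7 to 0, and the number called over all genes from 15 to 0. Lipe went from -1.49 to -0.02, Mgll from -0.68 to -0.21, G0s2 from -0.88 to -0.39 and Lipf from -2.44 to -1.15 (SE 0.65, adjusted p = 0.457), while Pnpla2 and Lpl changed sign, to 0.09 and 0.35. The median over the 9 genes also went from 0.69 to 0.23 between HFD16 and SD16, from 0.48 to 0.33 between HFD24 and SD24, from 0.41 to 0.19 between HFD-STZ24 and SD24, and from -0.68 to -0.34 between HFD-DR24 and HFD24.

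**Figure D5:**
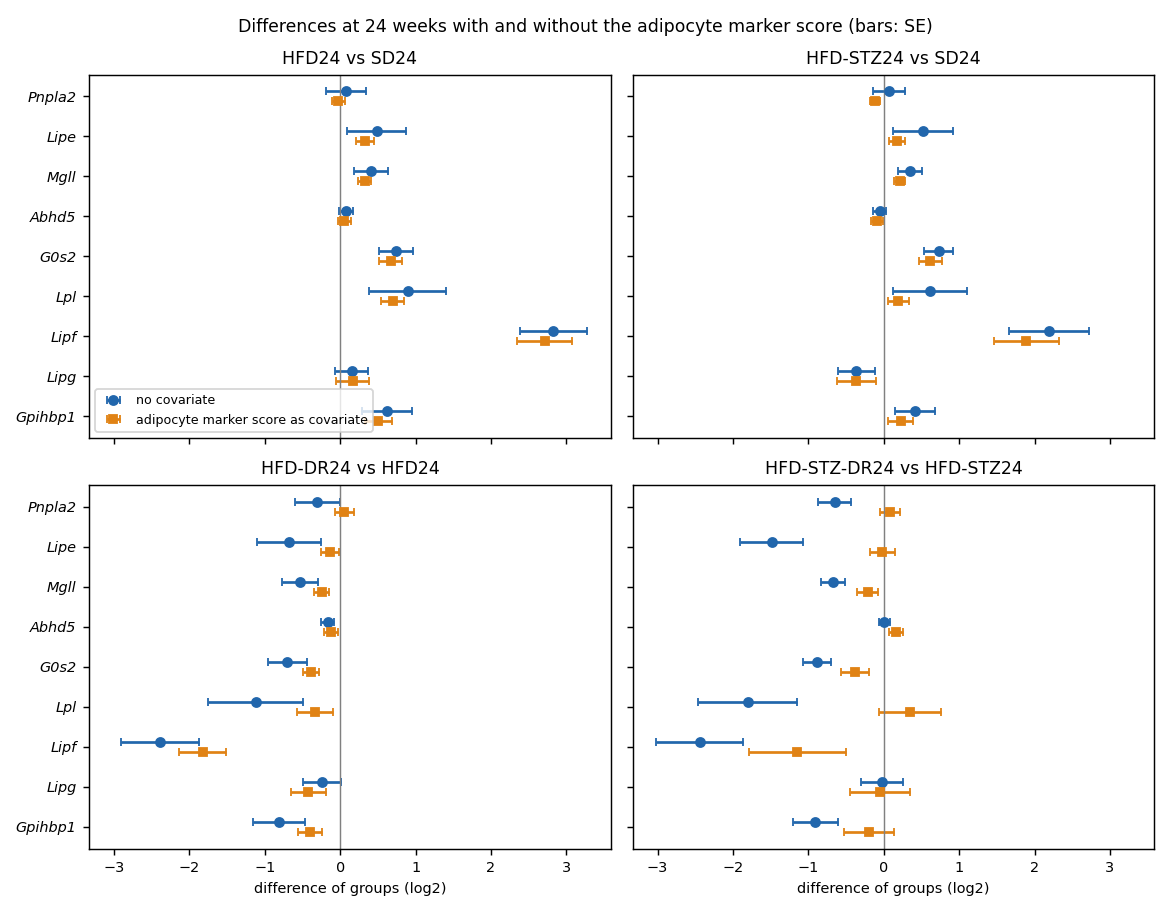
Difference in mean log2 value (horizontal axis) of each gene (vertical axis) in 4 comparisons at 24 weeks, without and with the adipocyte score in the model, with bars for the standard error. In HFD24 against SD24 the Lipf difference is 2.83 without and 2.71 with the score, and in HFD-STZ-DR24 against HFD-STZ24 most points move towards 0.

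The other genes of the pathway were read from 3 lists in the 4 main comparisons at 24 weeks, HFD24 and HFD-STZ24 against SD24, HFD-DR24 against HFD24 and HFD-STZ-DR24 against HFD-STZ24, and limma called none of them there. At an unadjusted p under 0.05 were 2, 4 and 3 genes of the lists in HFD24 against SD24, beside 1646 of 18191 genes in all (9.05%). Of 19 other lipid hydrolases 11 were tested, with median differences of 0.06, 0.03, -0.08 and -0.15 in the order of the comparisons. The largest absolute differences were those of Ces1f (-1.002) and Pnpla3 (0.61) in HFD24, Ces1f (-0.69) and Lipa (0.18) in HFD-STZ24, and Pnpla3 (-1.27) and Pla1a (-0.44) in HFD-DR24. Pnpla3, a close relative of Pnpla2, was lower by 1.92 (adjusted p = 0.0902) and Ces1d by 1.56 in HFD-STZ-DR24.

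The 10 droplet-side regulators, which coat or shape the lipid droplet or carry its products, had medians of 0.49, 0.35, -0.82 and -1.71 in the same order. Plin4 (1.18) and Cidec (1.09) led in HFD24, Plin4 (1.12) and Fabp4 (0.91) in HFD-STZ24, Cidec (-1.51) and Fabp4 (-1.29) in HFD-DR24, and Cidec (-2.41) and Fabp4 (-2.20) in HFD-STZ-DR24. In HFD-STZ-DR24 all 10 were lower, 9 of them at an unadjusted p under 0.05, beside 1157 of 17862 genes in all (6.48%). In HFD16 all 10 were higher than in SD16, by a median of 1.95, and 7 of them had an unadjusted p under 0.05, beside 1536 of 17962 in all (8.55%). Of these 10 genes Plin1, Cidec and Fabp4 are also among the adipocyte markers.

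The 17 genes of hormonal control of lipolysis, receptors and signalling enzymes, had medians of 0.02, -0.02, -0.13 and -0.21. Adrb3 (-0.85) and Adora1 (0.74) differed most in HFD24, Prkar2b (0.48) and Ptger3 (0.30) in HFD-STZ24, Ptger3 (-0.97) and Adora1 (-0.71) in HFD-DR24, and Adrb3 (-1.67) and Ptger3 (-1.37) in HFD-STZ-DR24. Some regulators of extracellular lipases were read singly in these 4 comparisons. In the same order, Angptl4, an inhibitor of Lpl, differed by 0.71, 0.64, -0.55 and -0.90, where the last had an adjusted p of 0.0503 and missed the threshold. Angptl8 differed by 0.89, 0.15, -0.94 and -0.59, and Apoc1 by -0.05, -0.22, -0.56 and -1.05. Lmf1, Sel1l, Sdc4, Furin, Vldlr and Lrp1 differed by 0.32 or less, none at an unadjusted p under 0.05, and Apoc2, Apoc3 and Apoa5 were under the filter.

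The genes whose group-centred values were most like those of each member were sought among 18060 others over the 53 samples, 3 for each. Lipf was most like 1700047G03Rik (r = 0.88), Gm5627 (0.84) and Tph2 (0.83). Closest to Pnpla2 were Cd36, Acsl1 and Dgat2 (0.95 each), to Lipe Cebpa (0.97), Nrg4 (0.96) and Lgals12 (0.96), and to Lpl Apol6 (0.97), Cd36 (0.96) and Aqp7 (0.94). Mgll was most like Acaa1b (0.93), Eif4ebp1 (0.90) and RP23-220F20.2 (0.90), and G0s2 like Acaa1b (0.85), RP23-220F20.2 (0.84) and Gm5627 (0.81). For Gpihbp1 they were Btnl9 (0.88), Tcf15 (0.86) and Cib2 (0.85), for Abhd5 Sar1a (0.82), Chpt1 (0.81) and Calu (0.80), and for Lipg Gm14455 (0.55), 2410080I02Rik (0.54) and 9330159F19Rik (0.49). As the highest of many values, these r are a description and carry no p.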

How the data were processed

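RNA sequencing of 53 sciatic nerve samples in 8 groups was used, and the lipid measurements were not used here. The authors removed low-quality reads and adapters, used HISAT2 to align the rest to GRCm38, and used featureCounts for counting per gene, with no version stated for either. The authors deposited log2 values, and their text names FPKM for expression levels and DESeq2 for tests without saying which normalization gave these values. The labels and the methods name different RNA and library kits (Trizol with TruSeq mRNA v2, and RNeasy with SMART-Seq v4), which was not resolved. The authors give an approximate number of reads per sample, and totals per library were not used here, so no counting error is given. The plan expected a model of read counts, and limma took its place because the values are not counts.

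Each comparison was fitted on its own samples with limma 3.58.1 in R 4.3.3 (lmFit, then eBayes with the trend option, so that the variance prior depends on abundance). Testing asked for a mean log2 of 3.32 or more over these samples, and 25 genes reaching above 22 were not tested. Adjustment was by Benjamini-Hochberg over all genes tested, with a threshold of 0.05. The changes of an effect with age or model were fitted on the 4 groups involved. Single genes and scores were also compared by 2-sided exact permutation tests of the difference in means over all ways of dealing the samples into groups of the same sizes. Associations used 100000 permutations within groups. Scores are mean log2 values of marker genes. These steps and the figures used Python 3.11.15, numpy 2.4.6, pandas 2.3.3, scipy 1.17.1 and matplotlib 3.10.9.

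Coordinates and exons are those of GENCODE M21, and promoter sequence came from RefSeq (GRCm38.p6). Read from its far end, each promoter was cut at the first base that GENCODE counts as exon. Of 111 listed genes, 110 were found by symbol and 1 (Cblif) by its older symbol. No pair of samples was identical, and 2 samples correlated at 0.981 to 0.998 over 49543 genes.

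The members and lists were chosen with earlier results of these data known. Each of the 9 members has values of its own and is counted in every comparison that tested it. From each wider list the genes past the threshold in a 24-week comparison are named, and otherwise the 2 with the largest absolute difference in each, and for likeness the 3 genes with the highest r. The Schwann cell score and the counts of the list of extracellular lipase regulators are not reported here. The genes named within marker lists are the most abundant and those at 0.

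Alternatives were no filter, 3.32 in every sample, a joint fit of all 8 groups, that joint fit with library-number run added, robust empirical Bayes, no trend in the prior, centring each sample on its median, the adipocyte score as covariate, and leaving out each sample in turn. The muscle score as covariate, both scores together, and keeping the genes above 22 were chosen after seeing the data.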

Additional observations from a re-analysis of the deposited data

Results flagged for a closer look

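In each of the 8 groups, the highest and lowest sample of each of the 9 genes was set against the rest by the gap to its nearest neighbour divided by the range of the group. Of these 72 looks, 3 had a gap larger than Dixon's limit, and chance marks about 1 in 20 groups. Abhd5 was lowest in HFD-STZ24 replicate 7, at 10.90 where the next mouse had 11.26, a share of 0.685. Lipg was lowest in SD16 replicate 1, at 4.09 where the next had 4.88, a share of 0.907. Gpihbp1 was highest in HFD-STZ-DR24 replicate 4, at 9.81 where the next had 8.57, a share of 0.707. HFD-STZ-DR24 replicate 4 was also the highest of its group for the muscle score, at 16.24, and the part of muscle in its Gpihbp1 value was not tested.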

How the results depend on the processing

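Lipf was called between HFD24 and SD24 under each alternative that tested it. The number of the 9 genes called there was 0 with 3.32 asked in every sample, where Lipf was not tested, and 2 with the adipocyte score alone or with both scores. All genes called went from 22 to 7 with 3.32 in every sample, 62 with all 8 groups, 98 with the library run, 42 after centring, 176 with the adipocyte score, 147 with both scores and 35 with the muscle score, and to 13 to 44 without 1 mouse. For HFD-STZ24 against SD24 they went from 6 to 3 with 3.32 in every sample, 16 with all 8 groups, 17 with the library run, 24 with the adipocyte score and 16 with both scores, and to 4 to 19 without 1 mouse, with 0 to 1 of the 9 genes.

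For HFD-DR24 against HFD24, 1 of the 9 genes was called with the library run and 1 with the adipocyte score. All genes called went from 2 to 0 without a filter, 1 with 3.32 in every sample, 18 with all 8 groups, 27 with the library run, 0 with robust empirical Bayes, 0 without trend, 8 after centring, 36 with the adipocyte score, 4 with both scores and 0 with the muscle score, and to 0 to 10 without 1 mouse. For HFD-STZ-DR24 against HFD-STZ24, 1 of the 9 genes was called with all 8 groups, 1 with the library run and 0 to 4 without 1 mouse. All genes called went from 15 to 1 without a filter, 1 with 3.32 in every sample, 47 with all 8 groups, 32 with the library run, 5 with robust empirical Bayes, 2 without trend, 0 with the adipocyte score, 0 with both scores, 2 with the muscle score and 5 with the genes above 22 kept, and to 0 to 167 without 1 mouse. For HFD16 against SD16 they went from 1 to 7 with all 8 groups, 16 with the library run, 6 with the adipocyte score, 10 with both scores and 2 with the muscle score, and to 1 to 4 without 1 mouse. For HFD-STZ16 against SD16 they went from 0 to 1 with all 8 groups, 1 with the library run and 7 with both scores, and to 0 to 1 without 1 mouse.

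Differences that changed sign were not called under either setting. With the adipocyte score, and with both scores, Pnpla2 went to -0.024 and -0.026 in HFD24 and to -0.11 and -0.10 in HFD-STZ24 against SD24, to 0.053 and 0.025 in HFD-DR24, and to 0.086 and 0.072 in HFD-STZ-DR24 against HFD-STZ24. There Lpl went to 0.35 and 0.13, Lipe to 0.053 with both scores and Lipg to 0.029 after centring. In HFD16 against SD16, Abhd5 went to -0.11 and -0.10 and Lipg to -0.031 and -0.20. In HFD-STZ16 against SD16, Pnpla2 went to -0.065 and -0.079, Mgll to -0.086 and -0.069, Abhd5 to -0.00049 and -0.024, and Lipg to -0.020 with the adipocyte score. In that comparison the library run gave Mgll -0.036, centring gave it -0.021, and the muscle score gave Mgll -0.011, Abhd5 -0.018 and Gpihbp1 0.059. Without 1 mouse the difference ran from -0.050 to 0.23 for Pnpla2 in HFD24 and from -0.033 to 0.17 in HFD-STZ24 against SD24, from -0.19 to 0.093 for Lipg and from -0.046 to 0.028 for Abhd5 in HFD-STZ-DR24 against HFD-STZ24, and from -0.12 to 0.20 for Lipg in HFD16 against SD16. In HFD-STZ16 against SD16 it ran from -0.00081 to 0.32 for Pnpla2, -0.10 to 0.068 for Mgll, -0.020 to 0.081 for Abhd5, -0.079 to 0.15 for Lipg and -0.22 to 0.090 for Gpihbp1. In the other 8 comparisons of 2 groups, with no mouse left out, 18 of 69 differences changed sign with the adipocyte score, 15 with both scores, 3 with the muscle score and 0 under the other settings, none of them called. Among them, in HFD-STZ-DR24 against SD24, Lipe went to 0.066 and 0.076, and with the adipocyte score Lpl went to 0.37, Abhd5 to 0.034 and G0s2 to 0.030. The cause was not tested for any of these changes.

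Replicate numbers follow the order of deposition and pair no mice, so no analysis was paired by them. Library runs were used instead, as a term in 1 alternative and for differences within runs. Genes with low values, Lipf and Lipg among them, lie near the filter, and as the values are not counts and library totals were not used here, what counting error adds to their spread was not computed. The score is built from genes of the same samples, 3 of them in the droplet list, so a model with it as covariate also removes what the markers share with the members.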
